A study of Mus musculus with 9 samples.

Results

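The 10 genes described here encode the core of the bone morphogenetic protein (BMP) pathway in the mouse. They are 3 ligands (Bmp2, Bmp4 and Bmp7), 4 receptors (Bmpr1a, Bmpr1b and Acvr1 of type I, and Bmpr2 of type II) and 3 transducing SMADs (Smad1, Smad5 and Smad4). They were chosen by name, as ligands, receptors and SMADs that bear on the ovary's response to BMP2. All 10 of them were found among the 23420 genes counted in each library. Ovaries of wild-type CD1 embryos were taken on embryonic day 16 and kept for 24 hours on culture inserts. They received recombinant human BMP2 protein at 50 ng/ml (the BMP2 group), the oestrogen estradiol-17β at 3.67 µM (the E2 group) or vehicle, and each group had 3 libraries. The labels state neither how many ovaries a library holds nor whether replicates are separate animals or cultures, so p-values measure the spread between these libraries, which may be technical. The added protein gives no reads, so Bmp2 reads are those of the ovary's own transcript.

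A BMP ligand binds a complex of type I and type II receptors. The type II receptor phosphorylates the type I receptor, which in turn phosphorylates SMAD1 and SMAD5, and these enter the nucleus with SMAD4, the partner they share with the TGFβ and activin branches. In the fetal ovary BMP2 is known as a product of somatic cells, and BMP4 is known for its earlier role in the formation of primordial germ cells.

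Libraries held 30418674 to 34320077 counts in genes, and those of a group correlated at 0.9959 to 0.9967 (Pearson, log2 CPM). Markers of germ cells and of pregranulosa cells, the supporting cells of future follicles, were high in every library, in the range of 1810 to 1932 and of 1993 to 2210 summed CPM (counts scaled to library size with TMM factors). Other cell types were present at lower summed levels. Among them, 8 of 8 markers of surface epithelium and mesothelium were lower in both treated groups (545 to 558 CPM in sum with BMP2, 429 to 436 with E2 and 624 to 649 with vehicle). Stroma markers summed to 856 to 861 CPM with BMP2, 796 to 807 with E2 and 876 to 899 with vehicle. Of these 7 markers, 2 were lower with BMP2, and 4 were higher and 3 lower with E2. Of 6 macrophage markers tested, 4 were lower with E2 (45.3 to 46.5 against 55.3 to 56.5 CPM with vehicle), and of 7 endothelial markers 5 were higher and 1 lower (218 to 231 against 219 to 225 CPM). Of 5 erythroid markers tested, 4 were higher with E2 (42.2 to 46.4 against 30.5 to 33.2 CPM). Hba-a1 had a count of 0 in all libraries, beside 12.1 CPM of Hbb-y with vehicle, and the cause of that 0 was not tested. The sum of 7 smooth muscle markers was 458 to 471 CPM with E2, against 315 to 323 CPM with vehicle, and Myh11 was the 1 of them that was called higher. With BMP2, 2 smooth muscle markers were called lower, 2 endothelial markers higher, and 2 erythroid markers higher and 1 lower. All 8 granulocyte and mast cell markers were called with BMP2, 4 higher and 4 lower (Mpo 2.22 against 0.388 CPM and Ltf 2.26 against 10.8 CPM with vehicle), and with E2 1 was higher and 6 lower. Of 8 germ cell markers, 4 were higher and 1 lower with each treatment, and of 8 pregranulosa markers 4 were higher and 1 lower with BMP2, and 3 higher and 2 lower with E2. All these counts are of calls against vehicle at an adjusted p under 0.05 (edgeR). They stand beside 13.7% of all genes tested that were called with BMP2 and 32.3% with E2. In such whole-tissue RNA, fewer cells of a type and less RNA per cell cannot be told apart, and the part of these cell types in the results on the BMP pathway was not tested.

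The ovary expressed all 10 genes, but at very unequal levels. Per exon length, as TPM (a gene's length-scaled share of all transcripts) over the union of each gene's exons, the type I receptor gene Bmpr1a stood highest in vehicle libraries, at 171 ± 4.17 TPM (mean ± SD, n = 3). Smad5 followed at 166 ± 3.37 TPM, and the ranges of both genes overlapped in the vehicle group (168 to 176 against 163 to 170 TPM). Smad4, the shared partner, stood at 135 ± 0.441 TPM. In vehicle libraries these 3 genes lay above 94.3%, 94.1% and 91.8% of all genes tested. The other 7 members stood well below them, at 48.2 TPM or less in every vehicle library.

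Below them, the vehicle levels were 46.9 ± 1.12 TPM for Bmp2, 23.6 ± 1.78 TPM for Bmp7 and 18.4 ± 0.487 TPM for Acvr1. Bmpr2 had 14.97 ± 0.310 TPM, Smad1 11.98 ± 0.430 TPM, Bmpr1b 9.50 ± 0.485 TPM and Bmp4 5.22 ± 0.573 TPM (SD, n = 3 each). In vehicle libraries the ranges of neighbours in this order did not overlap, other than those of Bmpr1a and Smad5. The order depends on the gene length used. With the longest transcript in place of the union of exons, Smad5 stood above Bmpr1a (136 against 133 TPM, vehicle) and Acvr1 above Bmp7 (19.7 against 18.9 TPM), and both pairs overlapped, as did Bmpr2 and Smad1.

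**Figure D1:**
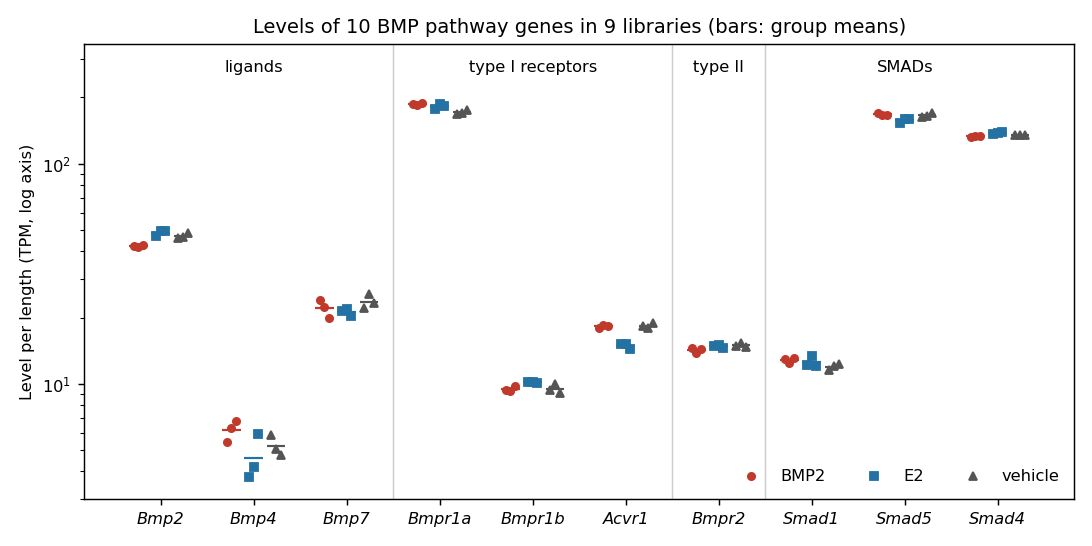
Level per exon length (TPM, log axis) of the 10 members in every library, by role; points are libraries and bars are group means (n = 3 each). Bmpr1a, Smad5 and Smad4 lie between 132 and 189 TPM in every library, and every other member lies at 49.4 TPM or below.

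Within each role, 1 gene held most of the transcripts of the members. The shares are taken over the members alone, so Acvrl1, another type I receptor gene, Smad9 and the other ligands are left out. Bmpr1a, the type I receptor that binds BMP2 and BMP4, made up 87.1 ± 0.153% of the summed TPM of the type I receptors with BMP2, 87.9 ± 0.330% with E2 and 86.0 ± 0.255% with vehicle (SD, n = 3 each). In the sum of Smad1 and Smad5, Smad5 held 92.9 ± 0.181% with BMP2, 92.6 ± 0.347% with E2 and 93.3 ± 0.129% with vehicle. Smad1 held the remainder, so Smad5 was 13.1 ± 0.360 times Smad1 with BMP2, 12.6 ± 0.648 times with E2 and 13.8 ± 0.288 times with vehicle. Among the member ligands, Bmp2 held 59.9 ± 1.34% with BMP2, 65.3 ± 0.261% with E2 and 62.0 ± 1.55% with vehicle. With the longest transcript as length, the vehicle shares were 82.9% for Bmpr1a, 90.4% for Smad5 and 59.8% for Bmp2.

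Acvr1 encodes a type I receptor known to bind BMP7. Its share was 8.38%, 8.68% and 8.47% in the BMP2 libraries, 7.44%, 7.18% and 6.93% in the E2 libraries, and 9.36%, 9.07% and 9.26% in the vehicle libraries. No library of any group reached the range of another group. The lower Acvr1 share with E2 came with 18.5 ± 0.528 CPM of Acvr1 and 298 ± 6.64 CPM of Bmpr1a with E2, against 23.2 ± 0.551 and 285 ± 6.08 CPM with vehicle. The Smad1 share also did not overlap between either treated group and vehicle (6.92% to 7.28% with BMP2, 6.99% to 7.68% with E2 and 6.59% to 6.83% with vehicle). An exact permutation test of 3 libraries against 3 cannot go below 0.10, and no other test of the shares was run.

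**Figure D2:**
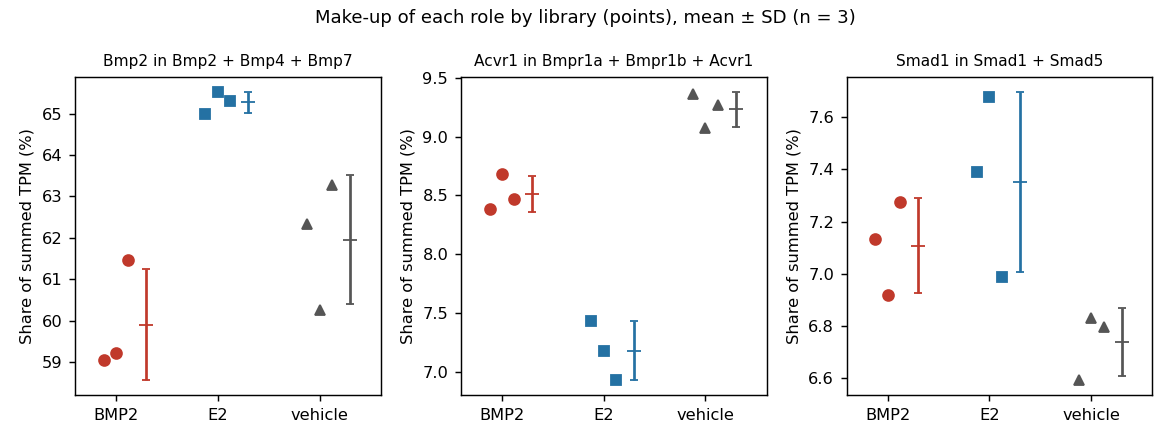
Share of Bmp2 among the 3 ligands, of Acvr1 among the 3 type I receptors and of Smad1 in the sum of Smad1 and Smad5, in percent of summed TPM; points are libraries, and the marks beside them are mean ± SD (n = 3). The Acvr1 share lies at 8.38% to 8.68% with BMP2, 6.93% to 7.44% with E2 and 9.07% to 9.36% with vehicle (the axes do not start at 0).

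The comparison of BMP2 with vehicle asks whether the pathway's own parts change when its ligand is supplied. Bmpr1a rose, and Bmp2 and Bmpr2 fell, each by less than 1.2-fold. With edgeR's quasi-likelihood test and Benjamini-Hochberg adjustment over 16360 genes, 3 of 10 members were called (adjusted p under 0.05), beside 13.7% of all genes tested. Of these, 1 rose and 2 fell, beside 6.84% of all genes that rose and 6.85% that fell. The median log2 fold change was -0.04 over the 10 members and -0.0015 over all genes. CPM ranges did not overlap for 4 of 10 members, beside 28.0% of all genes.

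Bmp2, on chromosome 2 from 133552159 to 133562885 (GRCm38, plus strand), was the ligand that fell. It had 38.6, 38.0 and 38.8 CPM in the BMP2 libraries, against 43.0, 43.2 and 44.7 CPM in the vehicle libraries. Every BMP2 library was below every vehicle library. The difference was 1.13-fold lower with BMP2 (log2 fold change -0.18 ± 0.040 SE, edgeR adjusted p = 3.2e-04), with a 95% interval of -0.26 to -0.10. It was called under all 16 other settings tried, at log2 fold changes of -0.19 to -0.16.

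The other ligands did not pass. Bmp7, a ligand best known from kidney and bone, had 24.7, 23.1 and 20.5 CPM with BMP2, against 23.2, 26.9 and 24.3 CPM with vehicle, and the groups overlapped (log2 fold change -0.12 ± 0.054 SE, edgeR adjusted p = 0.129). Without BMP2 replicate 1 the log2 fold change was -0.18 (adjusted p = 0.0343), and the range over the 16 other settings was -0.18 to -0.05. Bmp4 had 3.13, 3.64 and 3.89 CPM with BMP2, against 3.45, 2.98 and 2.78 CPM with vehicle. Its counts of 90 to 134 per library in these groups left a wide 95% interval of -0.06 to 0.48 (log2 fold change 0.21, adjusted p = 0.354), and 3.96% of its exon bases lie opposite another gene.

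Of the receptors, Bmpr1a rose and Bmpr2 fell with BMP2. Bmpr1a lies on chromosome 14 from 34410734 to 34503341 (minus strand), and 4.57% of its exon bases are shared with an antisense gene whose reads cannot be told apart in libraries that do not mark strand. It had 303, 301 and 307 CPM with BMP2, against 280.0, 283 and 292 CPM with vehicle. The groups did not overlap, and the level was 1.07-fold higher (log2 fold change 0.09 ± 0.020 SE, edgeR adjusted p = 2.3e-04), a call kept under all 16 other settings.

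Bmpr2, the type II receptor that is mutated in hereditary pulmonary arterial hypertension, lies on chromosome 1 from 59763400 to 59879014. It had 66.9, 63.5 and 66.2 CPM with BMP2, against 70.2, 72.1 and 68.9 CPM with vehicle. The groups did not overlap, and the level was 1.07-fold lower, a log2 fold change of -0.10 ± 0.032 SE (edgeR adjusted p = 0.0192). That call was lost with DESeq2 (adjusted p = 0.0662), without BMP2 replicate 2 (0.149), without vehicle replicate 1 (0.0503) and without vehicle replicate 2 (0.120). Beside these receptors, markers of surface epithelium, stroma, granulocytes, germ cells, pregranulosa cells and other cell types named above moved with BMP2, by the counts given there beside the share of all genes.

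The ratio of the type I receptor Bmpr1a to the type II receptor Bmpr2, per length, combines these genes. Acvr2a and Acvr2b, other type II receptor genes, are not members, so this is no ratio of all type I to all type II receptors. Acvr2a averaged 57.5 CPM in each group, and Acvr2b 8.87 CPM with BMP2, 9.10 with E2 and 8.29 with vehicle. The ratio was 12.8, 13.4 and 13.1 in the BMP2 libraries, against 11.3, 11.1 and 11.98 in the vehicle libraries. Every BMP2 library already lay above every vehicle library for Bmpr1a and below for Bmpr2. The lack of overlap in their ratio follows from this and is no further result. In the E2 libraries the ratio was 12.02, 12.4 and 12.6. With the longest transcript as length, the ratio averaged 10.04 with BMP2, 9.45 with E2 and 8.76 with vehicle.

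The remaining receptors and the SMADs did not pass with BMP2. Bmpr1b, the type I receptor whose mutation raises ovulation rate in sheep, had 14.3, 14.2 and 14.9 CPM with BMP2, against 14.7, 15.7 and 14.1 CPM with vehicle (log2 fold change -0.03, 95% interval -0.16 to 0.09). Acvr1 had 22.2, 22.8 and 22.7 CPM with BMP2, against 23.2, 22.7 and 23.8 CPM with vehicle (log2 fold change -0.04, 95% interval -0.15 to 0.06). For both receptors the BMP2 and vehicle libraries overlapped.

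Smad1 had 20.9, 19.8 and 21.1 CPM with BMP2, against 18.9, 19.8 and 20.2 CPM with vehicle (log2 fold change 0.07, 95% interval -0.04 to 0.18). Smad5 had 322, 316 and 318.5 CPM with BMP2, against 317, 319.8 and 328 CPM with vehicle. Its log2 fold change of -0.01 had a 95% interval of -0.05 to 0.03, which is 0.964 to 1.02 as a fold. The narrowest intervals were those of Smad5, Bmpr1a and Smad4, the genes with the most counts. Smad4 had 125, 128 and 127 CPM with BMP2, against 131, 132 and 130.1 CPM with vehicle. These groups did not overlap, but the difference of 1.04-fold did not pass (log2 fold change -0.05 ± 0.025 SE, edgeR adjusted p = 0.189).

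**Figure D3:**
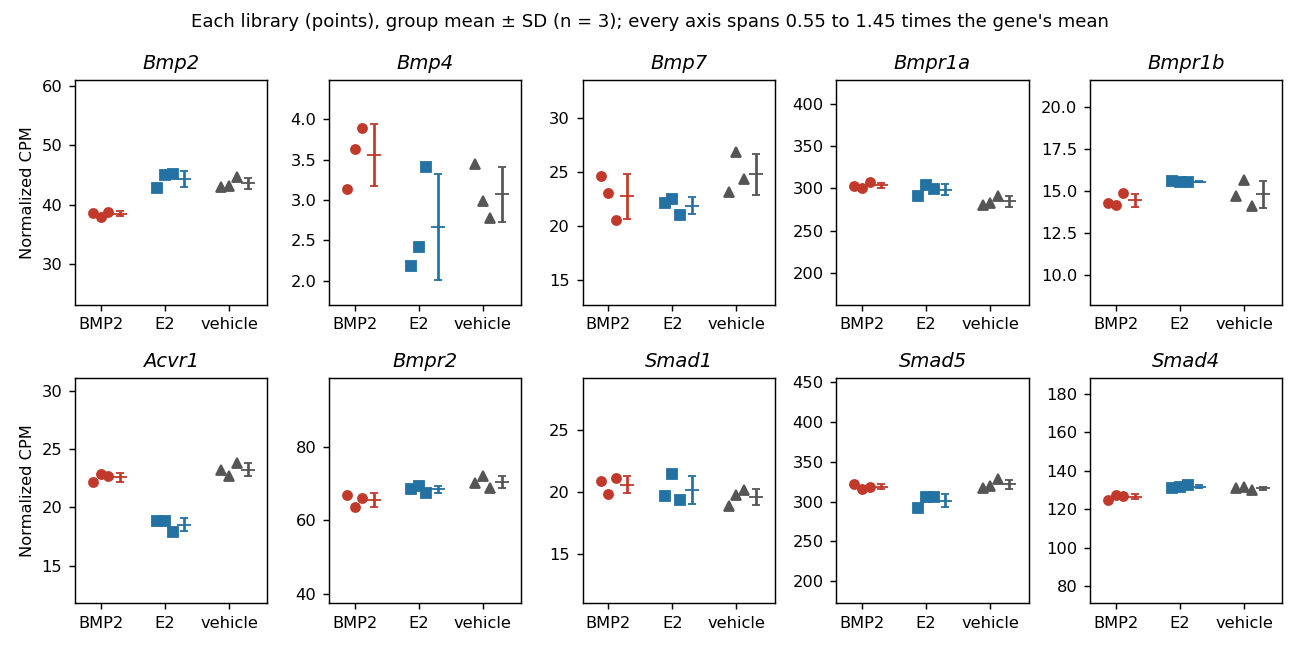
Normalized CPM of each member in every library; the marks beside the points are mean ± SD (n = 3), and each axis spans the same relative range around the gene's mean. Bmp2 is lowest with BMP2 (38.0 to 38.8 CPM), Acvr1 is lowest with E2 (17.9 to 18.9 CPM), and the points of Bmp4 are the most scattered.

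E2 was set against vehicle to see which parts of the pathway respond to oestrogen. The vehicle libraries are the same as those set against BMP2. Here 4 of 10 members were called, 1 higher and 3 lower, beside 32.3% of all genes tested (15.8% higher and 16.5% lower). The median log2 fold change was -0.02 over the members and -0.0026 over all genes, and 1 member, Acvr1, changed by more than 1.2-fold. CPM ranges did not overlap for 3 of 10 members, beside 41.2% of all genes. Both shares of members lie near those of all genes.

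Acvr1 lies on chromosome 2 from 58388644 to 58567157 (minus strand) and had the largest called change of a member in this comparison. It had 18.8, 18.9 and 17.9 CPM in the E2 libraries, against 23.2, 22.7 and 23.8 CPM in the vehicle libraries. All E2 libraries lay below all vehicle libraries. The level was 1.25-fold lower with E2 (log2 fold change -0.33 ± 0.055 SE, edgeR adjusted p = 2.7e-07), and the call was kept under all 16 other settings at -0.35 to -0.30. Markers of surface epithelium, macrophages and the other cell types named above also moved with E2, by the counts given there beside the share of all genes.

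The other receptors moved less or did not pass. Bmpr1a had 291, 304 and 299.8 CPM with E2, against 280.0, 283 and 292 CPM with vehicle. The lowest E2 library lay just below the highest vehicle library, and the level was 1.05-fold higher (log2 fold change 0.07 ± 0.021 SE, edgeR adjusted p = 0.00551). The call ended when GC and length effects were removed from each library (log2 fold change 0.03, adjusted p = 0.173), without vehicle replicate 1 (0.06, 0.0663) and without E2 replicate 2 (0.06, 0.0685). Bmpr1b had 15.6, 15.6 and 15.5 CPM with E2, against 14.7, 15.7 and 14.1 CPM with vehicle (log2 fold change 0.07, 95% interval -0.06 to 0.20). Bmpr2 had 68.6, 69.3 and 67.3 CPM with E2, against 70.2, 72.1 and 68.9 CPM with vehicle (log2 fold change -0.04, adjusted p = 0.363). With the GC and length trend removed, Bmpr2 was called lower (log2 fold change -0.09, adjusted p = 0.0186).

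Of the SMADs, Smad5 fell with E2. This gene, on chromosome 13 from 56703010 to 56742377 (plus strand), had 292, 306 and 305 CPM with E2, against 317, 319.8 and 328 CPM with vehicle. The groups did not overlap. The level was 1.07-fold lower (log2 fold change -0.10 ± 0.020 SE, edgeR adjusted p = 4.9e-05), and all 16 other settings kept the call, at -0.13 to -0.07. Smad1, its close relative, had 19.7, 21.5 and 19.4 CPM with E2, against 18.9, 19.8 and 20.2 CPM with vehicle (log2 fold change 0.04, 95% interval -0.07 to 0.15). Smad4 had 131, 132 and 132 CPM with E2, against 131, 132 and 130.1 CPM with vehicle. Its log2 fold change of 0.01 had a 95% interval of -0.04 to 0.06, and it was -0.01 with the GC and length trend removed.

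Of the ligands, Bmp7 fell with E2. It lies on chromosome 2 from 172868012 to 172940321 (minus strand) and had 22.1, 22.5 and 21.0 CPM with E2, against 23.2, 26.9 and 24.3 CPM with vehicle. The groups did not overlap, and the level was 1.13-fold lower (log2 fold change -0.18 ± 0.056 SE, edgeR adjusted p = 0.00766). The call was lost with DESeq2 (adjusted p = 0.0536), without E2 replicate 3 (0.0674) and without vehicle replicate 2 (0.140), where the log2 fold change shrank to -0.12. Bmp2 had 42.7, 45.1 and 45.1 CPM with E2, against 43.0, 43.2 and 44.7 CPM with vehicle, and did not pass (log2 fold change 0.02, 95% interval -0.05 to 0.10). Bmp4 had 2.18, 2.41 and 3.41 CPM with E2, against 3.45, 2.98 and 2.78 CPM with vehicle. It did not pass (log2 fold change -0.20, edgeR adjusted p = 0.309), and its value depended on single libraries. It was -0.08 without E2 replicate 1 (adjusted p = 0.765), -0.11 without vehicle replicate 1 (0.694), -0.13 without E2 replicate 2 (0.601) and -0.42 without E2 replicate 3 (0.0462).

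The direct comparison of BMP2 with E2 tests where the treatments differ. It shares the treated libraries with both comparisons above. Here 4 of 10 members were called, 3 higher and 1 lower with BMP2, beside 28.2% of all genes tested (14.1% higher and 14.0% lower). The median log2 fold change was 0.03 over the members and 0.0014 over all genes. CPM ranges did not overlap for 6 of 10 members, beside 39.6% of all genes.

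The Bmp2 transcript was 1.15-fold lower with BMP2 than with E2 (log2 fold change -0.20 ± 0.040 SE, edgeR adjusted p = 1.1e-05), and Acvr1 was 1.22-fold higher with BMP2 (0.29 ± 0.055, adjusted p = 7.9e-06). Smad5 was 1.06-fold higher with BMP2 (0.08 ± 0.020, edgeR adjusted p = 5.4e-04). These 3 calls were kept under all 16 other settings. The lower Bmp2 level with BMP2 and the lower Acvr1 and Smad5 levels with E2 thus differed between the treatments by the test of the difference itself.

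Bmp4 was 1.33-fold higher with BMP2 than with E2 (3.55 ± 0.387 against 2.67 ± 0.656 CPM, SD, n = 3 each), at adjusted p = 0.0180 and with overlapping libraries. This call was lost with DESeq2 (adjusted p = 0.101), without BMP2 replicate 2 (0.0551) or replicate 3 (0.113), and without E2 replicate 1 (0.172) or replicate 2 (0.104). Without E2 replicate 3 the log2 fold change was 0.63, against 0.41 with all libraries. For Bmpr1a, which was called higher than vehicle in both treated groups, the difference between BMP2 and E2 had a 95% interval of -0.01 to 0.07 (log2 fold change 0.03, adjusted p = 0.370), but it was called with the GC and length trend removed (log2 fold change 0.06, adjusted p = 0.00525). Smad4 was 1.04-fold lower with BMP2 and did not pass (adjusted p = 0.0626), although the libraries of the groups did not overlap. It passed when only these groups were fitted (adjusted p = 0.0452) and without vehicle replicate 3 (0.0426). Bmp7, Bmpr1b, Bmpr2 and Smad1 did not pass, with log2 fold changes of 0.06, -0.11, -0.06 and 0.03.

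**Figure D4:**
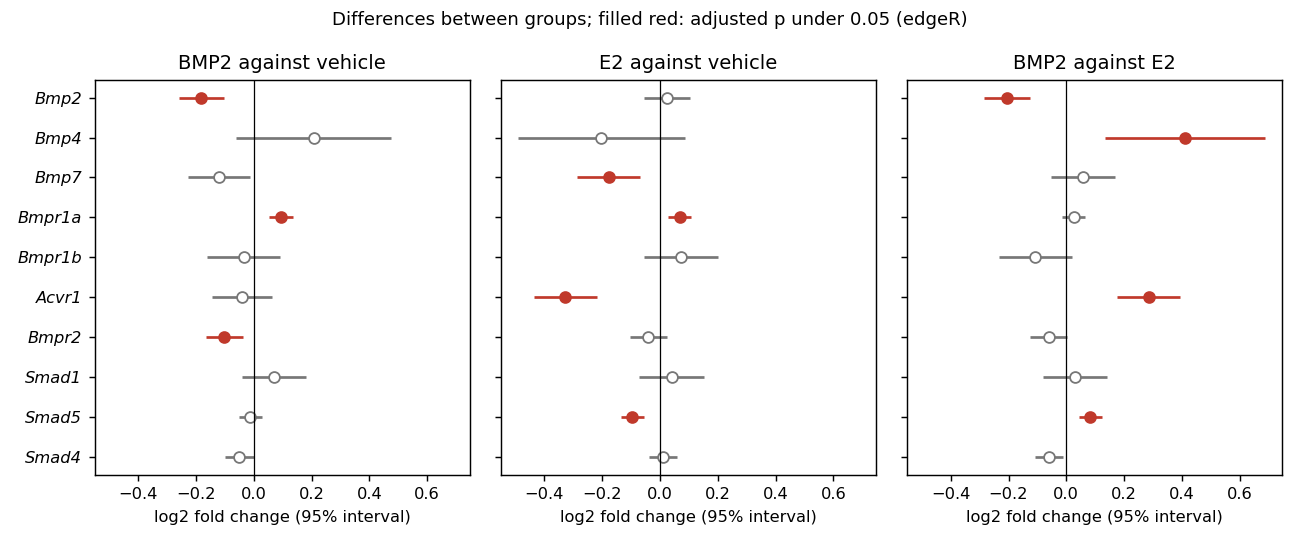
Log2 fold changes of the 10 members in the 3 comparisons with 95% intervals; filled red points have an edgeR adjusted p under 0.05. Called changes lie between -0.33 (Acvr1, E2 against vehicle) and 0.41 (Bmp4, BMP2 against E2), and the interval of Bmp4 is the widest in each panel.

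Of the 10 members, 7 have promoter windows in the RefSeq table (GRCm38.p6, 250 bases before to 50 after a transcript start), in 11 windows. The windows of the members that were called in a comparison with vehicle and have an entry are shown 5′ to 3′ on the gene's strand (for Smad5, that of its most upstream start), since these members carry changes described above. Capitals mark the letters GGCGCC, a GC-rich element to which SMAD1 and SMAD5 are known to bind, found on both strands since it is its own reverse complement.
Bmpr1a (chr14:34502497-34502796, minus strand): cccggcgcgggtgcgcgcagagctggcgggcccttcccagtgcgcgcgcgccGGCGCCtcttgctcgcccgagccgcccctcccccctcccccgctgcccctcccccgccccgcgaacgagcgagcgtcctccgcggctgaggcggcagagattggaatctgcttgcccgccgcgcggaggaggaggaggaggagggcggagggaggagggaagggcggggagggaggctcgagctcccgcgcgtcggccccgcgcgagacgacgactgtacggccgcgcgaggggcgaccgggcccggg
Bmpr2 (chr1:59764029-59764328, plus strand): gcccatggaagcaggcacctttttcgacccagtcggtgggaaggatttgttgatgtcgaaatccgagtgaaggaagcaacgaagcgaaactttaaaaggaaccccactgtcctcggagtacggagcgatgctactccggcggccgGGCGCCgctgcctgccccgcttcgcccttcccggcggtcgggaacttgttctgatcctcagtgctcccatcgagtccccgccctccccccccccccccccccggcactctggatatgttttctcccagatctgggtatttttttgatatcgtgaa
Acvr1 (chr2:58566779-58567078, minus strand): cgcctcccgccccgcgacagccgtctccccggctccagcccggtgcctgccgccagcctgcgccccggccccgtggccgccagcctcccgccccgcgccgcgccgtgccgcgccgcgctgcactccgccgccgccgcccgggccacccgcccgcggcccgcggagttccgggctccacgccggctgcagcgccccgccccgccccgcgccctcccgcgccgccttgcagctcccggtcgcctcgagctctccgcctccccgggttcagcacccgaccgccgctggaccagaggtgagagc
Smad5 (chr13:56702760-56703059, plus strand): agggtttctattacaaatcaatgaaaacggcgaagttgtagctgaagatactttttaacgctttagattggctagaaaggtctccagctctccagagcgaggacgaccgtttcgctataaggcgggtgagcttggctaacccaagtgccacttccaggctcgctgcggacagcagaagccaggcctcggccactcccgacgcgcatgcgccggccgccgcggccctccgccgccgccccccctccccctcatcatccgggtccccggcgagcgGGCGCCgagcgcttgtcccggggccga

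Of these, Bmpr1a, Bmpr2 and Smad5 hold GGCGCC, at -198, -105 and 23 (the distance of its first base from the transcript start), and Acvr1 holds none. Over all members it was in 4 of the 11 windows, another start of Smad5 included, and in none of those of Bmp4, Bmpr1b and Smad1. The Smad5 windows that hold it overlap and show the same copy, so the windows with it come from 3 of the 7 members. Among all 32851 windows of this length, 11.9% hold it. The palindromic oestrogen response element GGTCANNNTGACC was in none of the 11 member windows and in 0.07% of all windows. The shorter AGGTCA, searched on both strands, whose last 5 letters also open that element, was in 1 member window, at an alternative start of Bmpr1b, and in 16.3% of all windows. The Acvr1 window is 83.7% G or C, that of Bmpr1a 79.3%, that of Smad5 63.0% and that of Bmpr2 59.3%, against a median of 52.7% over all windows. These matches describe the letters in short windows and show no binding.

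Around the 10 members, 78 further genes of the pathway were listed, of which 67 passed the filter on low counts. With BMP2 against vehicle, 10 rose, 3 fell and 54 did not pass, and with E2 against vehicle, 14 rose, 14 fell and 39 did not pass. In the direct comparison, 18 were higher and 9 lower with BMP2 than with E2. The shares of all genes called in each comparison are those given above. The 13 calls with BMP2 were 7 with DESeq2 and 7 without vehicle replicate 1. Of the 13 other BMP and GDF ligands, 8 were tested, and none passed with BMP2 (0 of 8 with edgeR and 0 with DESeq2, against 2 at an unadjusted p under 0.05). With E2, Bmp3, an atypical ligand that opposes other BMPs, was 1.88-fold higher (5.22 ± 0.298 against 2.77 ± 0.231 CPM), while the oocyte ligand gene Gdf9 was 2.14-fold lower (1.04 ± 0.0984 against 2.23 ± 0.290 CPM) and Bmp6 1.26-fold lower (edgeR adjusted p = 2.9e-10, 9.9e-07 and 0.0211). Bmp6 did not pass with DESeq2 (adjusted p = 0.0822).

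Among 9 other receptors and co-receptors tested, none passed with BMP2 (0 with edgeR and 0 with DESeq2, against 1 at an unadjusted p under 0.05), and 3 fell with E2. These were Acvrl1, an endothelial type I receptor gene (1.24-fold lower), Bambi, a decoy receptor gene (1.14-fold lower), and the co-receptor gene Rgmb (1.13-fold lower). DESeq2 called 2 of the 9 with E2, and Rgmb did not pass (adjusted p = 0.101). Acvrl1 had 19.3 ± 0.262 CPM with E2, against 23.9 ± 1.71 CPM with vehicle, so this type I receptor fell beside Acvr1. Of 15 extracellular antagonists and modulators, 3 rose with BMP2 (Nbl1, Twsg1 and Bmp1), while 1 rose and 3 fell with E2. DESeq2 called 1 of the 15 with BMP2, Bmp1, and 4 with E2. Twsg1, which modulates BMP binding, was 1.04-fold higher with BMP2 (DESeq2 adjusted p = 0.0543) and 1.07-fold lower with E2, each against vehicle, and 1.12-fold higher with BMP2 than with E2 (adjusted p = 5.6e-11).

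Of 18 other SMADs and SMAD regulators, 4 rose and 2 fell with BMP2, and 7 rose and 2 fell with E2. DESeq2 called 2 of the 18 with BMP2, Smad3 and Zeb1, and 6 with E2. Smad9, the third receptor-activated SMAD of the BMP branch, was 1.23-fold higher with BMP2 (5.49 ± 0.0455 against 4.46 ± 0.0766 CPM, edgeR adjusted p = 0.0401, DESeq2 adjusted p = 0.131) and 1.38-fold higher with E2 (6.17 ± 0.432 CPM, adjusted p = 1.3e-04), and the difference between BMP2 and E2 did not pass (log2 fold change -0.17 ± 0.10 SE, adjusted p = 0.218). Smad3, of the TGFβ and activin branch, was 1.13-fold higher with BMP2 and 1.09-fold higher with E2 (144 ± 2.47 and 139 ± 2.16 against 128 ± 1.75 CPM with vehicle), and the difference between BMP2 and E2 did not pass (edgeR adjusted p = 0.0991). Of 4 proprotein convertases, which cut BMP precursors, Pcsk6 was 1.11-fold higher with BMP2 and Furin 1.18-fold lower with E2.

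Of 13 target genes tested, 2 rose and 1 fell with BMP2, and 5 rose and 3 fell with E2. Id1, a well-known direct target of BMP signalling, had 175 ± 3.80 CPM with BMP2 and 199 ± 5.71 CPM with E2, against 151 ± 2.18 CPM with vehicle. Both groups were called higher than vehicle, and Id1 was 1.14-fold lower with BMP2 than with E2 (log2 fold change -0.18 ± 0.023 SE, edgeR adjusted p = 7.0e-12). Of its relatives, Id2 was higher with BMP2 than with E2 (log2 fold change 0.14, edgeR adjusted p = 4.8e-06). In that comparison Id4 was 1.16-fold lower (0.00133) and Id3 did not pass (0.868). Against vehicle, Id3 was called higher with BMP2 (log2 fold change 0.13, edgeR adjusted p = 1.6e-04) and with E2 (0.13, 1.7e-04). Id2 did not pass with BMP2 (0.05, 0.205) and was lower with E2 (-0.09, 0.00482). Id4 did not pass with BMP2 (0.09, 0.290) and was higher with E2 (0.30, 2.3e-06). Gata3 was 1.33-fold lower with BMP2 and 1.98-fold lower with E2.

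Patterns close to that of the Bmp2 transcript were sought over all 9 libraries, as the root mean square difference of centred log2 CPM against 13454 genes. The nearest were Cdh11, a cadherin of mesenchymal cells, at 0.0255, Ap4e1 at 0.0259 and Cep68 at 0.0326 on the log2 scale. Cdh11 averaged 137 CPM with BMP2, 153 with E2 and 151 with vehicle. Bmp4 had the largest range of group means of the members (0.43 log2), and its nearest genes were Chchd10 (0.106), Haao (0.107) and Wscd1 (0.126).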

How the data were processed

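RNA of cultured mouse ovaries was sequenced in 9 libraries, 3 per group. The authors deposited raw read counts for each gene, and the submitters' processing notes name TopHat2, HTSeq, DESeq2 and the build mm10, without versions. Per the labels' protocols, RNA with an integrity number over 9 went into Illumina TruSeq v2 libraries, a kit that does not mark strand. Neither annotation nor strand setting is given in the sources used here. Groups were read from the title prefixes (B2 as BMP2, C as vehicle and E2), since the protocol names 3 conditions. The 5 summary rows for reads in no gene (38.2% to 39.7% of a library) were left out.

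Tests used edgeR 4.0.16 in R 4.3.3 (filterByExpr, minimum count 10, TMM, robust quasi-likelihood fit of all 9 libraries with 6 residual degrees of freedom, Benjamini-Hochberg adjustment over 16360 genes). The fit was checked on counts simulated as independent libraries with the same spread for every gene. That check covers neither spread that differs between genes nor technical replicates. All 10 members passed the filter, with 66 to 10986 counts per library, which leaves Bmp4 the least precise. Standard errors were taken as the fitted log2 change over the root of its F. TPM and positions use GENCODE vM21 on GRCm38 (mm10). Named genes are all members, then up to 4 called genes per pathway list and comparison by size of change, with a mean of at least 1 CPM. Id1, Id2, Id3, Id4, Smad3 and Smad9 in further comparisons, Zeb1 and the marker genes named fall outside that rule and were chosen after their values were seen. The members and lists were chosen with earlier results of these data known. Other settings were DESeq2 1.42.0, its size factors, other filters, only the groups compared, a replicate block, a GC and length offset (splines with 5 degrees of freedom), a threshold of 0.01 and leaving out each library.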

Additional observations from a re-analysis of the deposited data

How the results depend on the processing

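Over 30 member comparisons and 16 settings each, 453 of 480 values kept their direction and side of the threshold, 15 lost a call, 7 gained one and 5 changed sign. With all libraries 3, 4 and 4 of 10 members were called in the 3 comparisons, so most kept values were of members that stayed uncalled. Some settings left out a library of the group not compared, which enters a comparison only through the filter, the normalization and the shared spread. The calls of Bmp2 and Bmpr1a (BMP2 against vehicle), Acvr1 and Smad5 (E2 against vehicle), and Bmp2, Acvr1 and Smad5 (BMP2 against E2) were kept throughout. The sign changes were in values that never passed. With a library left out, the log2 fold change with BMP2 against vehicle was -0.069 to 0.0062 for Bmpr1b and -0.023 to 0.0016 for Smad5, that with E2 against vehicle was -0.0054 to 0.071 for Smad1, and that between BMP2 and E2 was -0.0071 to 0.12 for Bmp7. Smad4 with E2 against vehicle changed sign with the GC and length offset (-0.012). The cause was not tested. Members called numbered 2 to 4, 3 to 4 and 3 to 5 in the 3 comparisons when a library was left out. For BMP2 against vehicle, DESeq2 called 1414 genes in all and 7 of the other pathway genes, and a threshold of 0.01 called 1318 and 6, against 2239 and 13. Leaving out a library gave 7 to 13 of these (8 without BMP2 replicate 2, 8 without BMP2 replicate 3 and 7 without vehicle replicate 1). DESeq2 left 6612 to 9017 adjusted p-values undefined, none of them of a member.

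Same-numbered libraries deviated together weakly at most (correlations -0.0090 to 0.071, and 5 of 9 libraries correlated best with their own number). These values do not settle whether the numbers pair the libraries. With the replicate block 2512, 5512 and 4875 genes were called in all (BMP2 against vehicle, E2 against vehicle, BMP2 against E2), and 3, 4 and 5 members, with Smad4 added between BMP2 and E2 (adjusted p = 0.0464). Bmp4, with the fewest counts of a member (66 to 134 per library), had the widest interval in each comparison.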
